A study of Homo sapiens with 8 samples.

Results

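CFAP58, SYTL2, DIO2, SNX16 and RGS4 are 5 protein-coding genes with few reads in control U-2OS cells and several times more reads after knockdown of CGGBP1. They were chosen by their total RNA, as low in the siControl libraries and higher in the siCGGBP1 libraries, and are 5 of 18388 genes counted, 5 of 10138 tested and 5 of the 46 called higher in total RNA. Since that contrast selected them, their values in it are given as a description with no test. The question was whether the newly synthesized RNA of these genes was also higher.

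U-2OS Tet-ON cells, an osteosarcoma line that expresses the tetracycline-regulated transactivator, were transfected for 72 h with 50 nM of an siRNA pool against CGGBP1 (siCGGBP1) or of control siRNA (siControl), with 3 libraries of each. For the last 60 min all 6 samples received 75 µM 4-thiouridine (4sU), a uridine analog built into new RNA, and single siControl libraries received 0 or 200 µM. In SLAM-Seq, alkylated 4sU is read as T-to-C conversions, from which the authors' GRAND-SLAM pipeline estimated, for each gene and library, the new-to-total RNA ratio. All samples carry DMSO in their titles, and no untransfected cells were among them.

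CGGBP1 is a DNA-binding protein that recognises CGG trinucleotides. The 5 genes belong to unrelated pathways. CFAP58 is a component of cilia and sperm flagella. SYTL2 is a synaptotagmin-like effector of the RAB27 GTPases in vesicle docking. DIO2 is a selenoprotein that converts the prohormone thyroxine to the active thyroid hormone. SNX16 is a sorting nexin of endosomes, and RGS4 speeds GTP hydrolysis on G alpha subunits and so shortens G protein signaling.

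Gene positions are those of GENCODE 44 on GRCh38. CFAP58 lies at chr10:104353833-104455102 on the plus strand, SYTL2 at chr11:85694224-85811159 on the minus strand, DIO2 at chr14:80197526-80387757 on the minus strand, SNX16 at chr8:81799581-81842866 on the minus strand and RGS4 at chr1:163068775-163076802 on the plus strand. The 5 genes thus sit on 5 different chromosomes. DIO2 overlaps the antisense RNA DIO2-AS1, and SNX16 overlaps LINC02235, a pseudogene and another long noncoding RNA, all on the opposite strand. Whether reads were counted by strand is not given in the sources used here, so reads of the overlapping genes may be included. The 3′ end of SNX16, at 81799581, lies within the long noncoding RNA at 81791823 to 81815714. The 3′ end of DIO2, at 80197526, lies outside DIO2-AS1, which spans 80211419 to 80455469.

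The libraries held 10127519 to 14221516 reads in the 6 libraries compared, 19011714 reads at 0 µM and 11341561 at 200 µM. Reads were normalized by TMM to the mean of the 6 libraries, and all levels below are such normalized reads. CGGBP1 itself had 1245, 1089 and 891 normalized reads with siControl (replicates 1 to 3, the order used throughout) and 212, 117 and 363 with siCGGBP1, a log2 fold change of -2.22 (SE 0.39, edgeR adjusted p = 0.0138), with the smallest drop in siCGGBP1 replicate 3. Among the 6 libraries compared, the replicate 3 libraries of both groups stood apart in the labeling. Of genes with at least 100 reads, 56.3% and 59.6% had a ratio of 0 in siControl 3 and siCGGBP1 3. The share was 21.7% to 30.7% in the other 4, and 54.5% in the siControl library with 200 µM 4sU. Among markers of the osteoblast lineage, 3 of 7 counted genes were tested, and SPARC and COL1A1, matrix genes of bone cells, were called higher after siCGGBP1 (log2 fold change 1.27, SE 0.19, edgeR adjusted p = 0.00634, and 1.31, SE 0.18, edgeR adjusted p = 0.00353). The summed level of the 7 lineage markers was 13372 to 18639 normalized reads in siControl and 32382 to 45949 after siCGGBP1, nearly all of it from COL1A1 and SPARC. Of the lineage's other markers, RUNX2 was tested and not called (log2 fold change 0.52), SPP1 had a mean of 96.5 normalized reads in siControl and 4.22 after siCGGBP1, BGLAP had 27.2 and 9.58, ALPL had 5.88 and 10.0, and SP7 had 1.93 and 0, so the markers did not move one way. Among 10 counted markers of other cell types, CDH1, CD3E and PECAM1 were at 0 in all 6 libraries, KRT8, KRT18 and SNAP25 were tested, and none was called by edgeR (1 had an unadjusted p under 0.05, and DESeq2 called KRT18 lower). Their summed level was 5455 to 7203 in siControl and 3227 to 5398 after siCGGBP1. The mean of KRT18 was 4169 in siControl and 1940 after siCGGBP1, and that of SNAP25 154.5 and 132.6. By contrast, KRT8 had 1911 and 2071 and EPCAM 68.7 and 127, so these markers did not move one way either. The part of these values in the results was not tested.

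Because CGGBP1 recognises CGG, the promoters were examined for these letters. The RefSeq promoter table (GRCh38.p14, 250 bases before to 50 bases after each start) holds 8 entries for CFAP58, DIO2 and RGS4. The entry with the most CGG or CCG triplets of each gene is shown, 5′ to 3′ on the gene's strand, with every CGG and CCG in capitals (in CCGG the 2 triplets overlap).
CFAP58, plus strand, chr10:104338270-104338569: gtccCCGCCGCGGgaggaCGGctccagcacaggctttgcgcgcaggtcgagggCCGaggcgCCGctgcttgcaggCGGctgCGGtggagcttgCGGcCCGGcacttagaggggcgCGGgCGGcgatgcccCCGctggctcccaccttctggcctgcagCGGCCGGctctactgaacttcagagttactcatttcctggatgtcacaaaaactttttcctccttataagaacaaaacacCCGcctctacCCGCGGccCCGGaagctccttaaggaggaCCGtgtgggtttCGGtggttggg
DIO2, minus strand, chr14:80211455-80211754: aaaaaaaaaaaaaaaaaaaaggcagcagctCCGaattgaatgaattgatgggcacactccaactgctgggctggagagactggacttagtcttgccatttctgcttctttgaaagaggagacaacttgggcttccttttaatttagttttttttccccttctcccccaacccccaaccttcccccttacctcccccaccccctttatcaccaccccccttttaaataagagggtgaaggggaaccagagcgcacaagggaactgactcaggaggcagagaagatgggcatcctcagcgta
RGS4, plus strand, chr1:163068621-163068920: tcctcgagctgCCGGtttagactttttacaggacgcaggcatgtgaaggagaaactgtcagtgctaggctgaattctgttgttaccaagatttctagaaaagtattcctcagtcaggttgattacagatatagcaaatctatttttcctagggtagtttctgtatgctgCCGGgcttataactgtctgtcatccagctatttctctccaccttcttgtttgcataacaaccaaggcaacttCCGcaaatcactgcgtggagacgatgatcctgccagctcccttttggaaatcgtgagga

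The 3 promoters differed widely in these letters. The CFAP58 window shown held 24 triplets and lies upstream of the annotated gene, not at its start. Its other entry at chr10:104353583-104353882, which spans the annotated start, held 15, and 37.7% of the 35116 promoters in the table held at least 15. By contrast, the DIO2 entries held 1 and 0 triplets, as few as the 21.7% of promoters with at most 1, and those of RGS4 held 1 to 5, against a median of 9 over all promoters. The tandem CGGCGG, or CCGCCG on the other strand, occurred once among the 8 entries, in the upstream CFAP58 window at position -246 from the start, and occurs in 29.6% of all promoters. A run of 3 such triplets, CGGCGGCGG or CCGCCGCCG, was in none of the 8 entries and is in 6.21% of all promoters. The upstream CFAP58 window overlaps the 5′ end of ITPRIP, which is annotated on the opposite strand at chr10:104309698-104338465.

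All 5 genes had a higher level in each siCGGBP1 library than in any siControl library at 75 µM 4sU, with group means 3.12 to 9.51 times higher. This contrast chose them, and nothing is read from their calls. In the edgeR fit of total RNA, 46 of 10138 genes (0.454%) were called higher at an adjusted p under 0.05 and a log2 fold change above 1, and 143 (1.41%) in either direction. In 12.1% of the tested genes the siCGGBP1 libraries were all above the siControl libraries.

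CFAP58 had 125, 75.9 and 199 normalized reads in siControl and 1198, 1449 and 1015.5 after siCGGBP1. The lowest siCGGBP1 library thus lay far above the highest siControl library, and the siCGGBP1 libraries differed little among themselves. The means were 133 ± 61.9 and 1221 ± 218 (SD, n = 3), a log2 fold change of 3.20 (SE 0.37). CFAP58 moved from the 9.66th percentile of tested genes in siControl to the 81.0th after siCGGBP1.

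SYTL2 had 185.1, 184.7 and 117 normalized reads in siControl and 784, 535 and 1492 after siCGGBP1. Its controls were close together, while siCGGBP1 replicate 3 was well above the other two. The means were 162 ± 38.9 and 937 ± 497 (SD, n = 3), a log2 fold change of 2.53 (SE 0.41).

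DIO2 had 111, 93.8 and 37.15 normalized reads in siControl and 489, 641 and 889 after siCGGBP1. Again the highest of the siCGGBP1 libraries was replicate 3, which was also the lowest of the siControl libraries. The means were 80.7 ± 38.7 and 673 ± 202 (SD, n = 3), a log2 fold change of 3.06 (SE 0.47). No siControl library reached 100 raw reads, so DIO2 passed the filter of 100 reads in 3 of 6 libraries only through siCGGBP1 and had to differ.

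SNX16 was the lowest of the 5 in siControl, with 92.5, 67.5 and 36.1 normalized reads, and had 403, 281 and 1183 after siCGGBP1. Most of its siCGGBP1 mean came from replicate 3. The means were 65.4 ± 28.3 and 622 ± 489 (SD, n = 3), a log2 fold change of 3.25 (SE 0.59), and the siCGGBP1 libraries had the largest coefficient of variation of the 5 genes, 78.7%. Like DIO2, SNX16 passed the filter only through siCGGBP1.

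RGS4 was the least low and the least raised. It had 340.1, 318 and 194 normalized reads in siControl and 1014, 1003 and 636 after siCGGBP1. In both groups replicate 3 was the lowest, unlike in SYTL2, DIO2 and SNX16. The means were 284 ± 78.8 and 884 ± 215 (SD, n = 3), a log2 fold change of 1.64 (SE 0.33). RGS4 stood at the 32.9th percentile of tested genes in siControl and so was of low rather than very low abundance, against percentiles of 0.858 for SNX16, 1.83 for DIO2 and 14.8 for SYTL2.

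**Figure D1:**
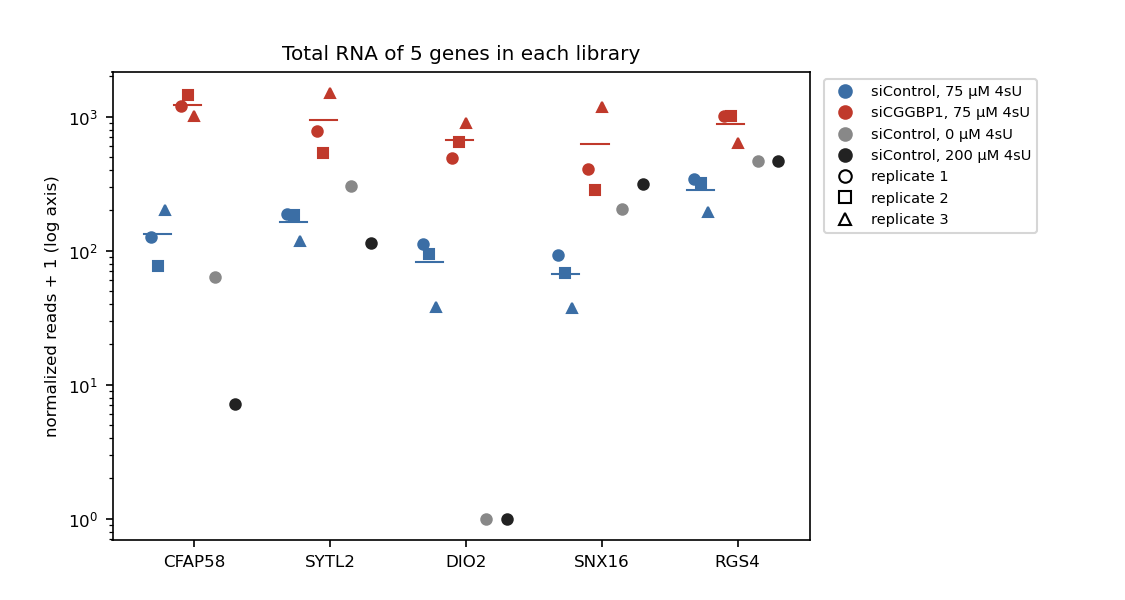
Normalized reads plus 1 (log axis) of the 5 genes in each of 8 libraries, with 1 point per library and bars at the means of the 3 libraries of a group. The siCGGBP1 points lie above the siControl points at 75 µM for every gene, while the siControl points at 0 and 200 µM range from 0 reads for DIO2 to 467.3 normalized reads for RGS4.

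Of the 3340 tested genes with a siControl mean at or below that of RGS4, 110 had a log2 fold change at least as large as that of RGS4, the lowest of the 5. Besides the 5 these were 105 other genes, of which 10 were called higher. By log2 fold change the 5 genes ranked from 6 to 113 among all tested genes. A gene with under 100 reads in all siControl libraries entered the test only if all its siCGGBP1 libraries reached the filter, which shapes the left edge of the plot of all tested genes.

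The siControl libraries with 0 and 200 µM 4sU, which the choice did not use, gave mixed levels for the 5 genes. CFAP58 and DIO2 were low there too. CFAP58 had 62.6 normalized reads at 0 µM and 6.12 at 200 µM, and DIO2 had 0 reads in both, which allows up to 3 reads. For CFAP58 and DIO2 the siCGGBP1 libraries were therefore above all 5 siControl libraries, as they also were for SYTL2 and RGS4 but not for SNX16.

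SNX16 and RGS4 were higher in these 2 libraries than in any siControl library at 75 µM. SNX16 had 202.5 normalized reads at 0 µM and 313.9 at 200 µM, and the second of these exceeded siCGGBP1 replicate 2 at 281. RGS4 had 462.6 and 467.3, below the lowest siCGGBP1 library at 636. SYTL2 had 300.3 at 0 µM, above its siControl libraries at 75 µM, and 113 at 200 µM, below them. Both were below its lowest siCGGBP1 library at 535.

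Thus the range between control libraries was wide for these genes, and for SNX16 it reached into the siCGGBP1 range. With all 5 siControl libraries in the edgeR fit, an alternative chosen after seeing these values, the log2 fold change of SNX16 was 2.13 and that of DIO2 3.82. Levels above the 3 siControl libraries were common, at 31.0% of all tested genes at 0 µM and 31.3% at 200 µM. Some library of any set is the highest for each gene, so these shares are not read as shifts. The 5 genes were also chosen as low in those 3 libraries. Of the other 41 genes called higher, 21 and 20 were above all siControl libraries, and 5 and 6 reached the lowest siCGGBP1 library. The 2 libraries have no replicates.

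Newly synthesized RNA was calculated per library as the normalized reads multiplied by the maximum a posteriori ratio. DIO2 was the only member whose newly synthesized RNA was higher in all 3 siCGGBP1 libraries than in all 3 siControl libraries, against 3.05% of all tested genes. Newly synthesized RNA contains the total reads that chose the genes, and the mean ratio of DIO2 was 47.3% in siControl and 31.3% after siCGGBP1, so its separation followed the reads and is not independent of the choice. For the other 4 genes the groups overlapped, although the mean of each was higher after siCGGBP1. For none of the 5 was the new-to-total ratio separated between the groups in either direction, against 4.25% of tested genes with all siCGGBP1 libraries lower and 3.01% with all higher.

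The ratio of DIO2 was estimated as 28.7%, 73.4% and 39.9% for the siControl libraries, and as 18.9%, 31.4% and 43.6% for those with siCGGBP1. The siControl estimates rest on 15, 42 and 11 conversions and have wide limits (5 to 95% limits of 58.9% to 85.2% in replicate 2), while the siCGGBP1 estimates rest on 64, 161 and 281 conversions. Multiplied by the reads, this gave 31.9, 68.8 and 14.8 normalized new reads in siControl and 92.1, 201 and 387 after siCGGBP1. The lowest siCGGBP1 library was thus above the highest siControl library, as it was for the total reads that enter these values. The means were 38.5 ± 27.6 and 227 ± 149 (SD, n = 3), a difference of 2.55 in log2(normalized new reads + 1) (SE 0.86), beside 3.14 for total RNA on the same scale.

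CFAP58 gave ratios of 16.03%, 22.3% and 3.87% in siControl and 0.90%, 7.13% and 52.5% after siCGGBP1. The siCGGBP1 libraries thus held both the lowest and the highest share of the 6, although their total reads were similar. In siCGGBP1 replicate 3, 1127 conversions were counted and 484 reads carried at least 2 of them, whereas siCGGBP1 replicate 1, with 1041.5 reads, had 61 conversions and 2 such reads. New reads were 20.0, 17.0 and 7.69 in siControl and 10.8, 103 and 533 after siCGGBP1, higher in 7 of 9 pairs. The difference in log2(normalized new reads + 1) was 2.55 with an SE of 1.64, and siCGGBP1 replicate 3 alone supplied most of the mean of 216 ± 279 (SD, n = 3).

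SYTL2 varied most in the ratio, with 1.06%, 2.31% and 98.0% in siControl and 12.3%, 6.59% and 0.41% after siCGGBP1. In siControl replicate 3 nearly all reads were estimated as new, from 42 conversions in 117 reads of which none carried 2 conversions. Its new reads were 1.96, 4.27 and 115 in siControl and 96.1, 35.2 and 6.12 after siCGGBP1. They were higher after siCGGBP1 in 6 of 9 pairs, and the difference of 1.26 in log2(normalized new reads + 1) had an SE of 1.98. Without both replicate 3 libraries, an alternative chosen after seeing the data, it was 3.91.

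SYTL2 also carried conversions without 4sU. In the 0 µM library 110 conversions were counted in its 516 reads, 0.540 per 100 covered T, which was above all 3 siCGGBP1 libraries and above the rate of that library over all genes (0.0638). Just 1 of these reads carried at least 2 conversions. When the conversions expected at this rate were subtracted, the SYTL2 difference turned to -1.64. The unsubtracted conversion counts, which grow with the reads, gave 2.40. In 5 of the 6 libraries the conversions were fewer than that rate predicts and were set to 0, so the -1.64 rests on siControl replicate 3 alone.

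SNX16 had ratios of 14.98%, 15.11% and 0% in siControl and 10.2%, 2.17% and 0% after siCGGBP1. In both replicate 3 libraries no read carried 2 conversions, and siCGGBP1 replicate 3, the library with by far the most SNX16 reads, gave 53 conversions over 65040 covered T. New reads were 13.9, 10.2 and 0 in siControl and 40.9, 6.09 and 0 after siCGGBP1, higher in 4 of 9 pairs. The difference in log2(normalized new reads + 1) was 0.28 (SE 1.99), against 3.05 for total RNA on that scale. The value depended on the measure: conversion counts in place of reads times ratio gave 2.46, and conversions above the rate without 4sU gave 2.32. Both counts grow with the reads that chose the gene. The mean conversions per 100 covered T, which do not, were 0.410 ± 0.356 in siControl and 0.204 ± 0.142 after siCGGBP1 (SD, n = 3). With the ratio, without siCGGBP1 replicate 1 or siControl replicate 3 the difference was -1.05 or -0.95.

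RGS4 had ratios of 41.6%, 26.0% and 5.84% in siControl and 33.0%, 10.8% and 10.4% after siCGGBP1. Replicate 1 was the highest in both groups, and the ratios overlapped throughout. New reads were 141, 82.5 and 11.3 in siControl and 335, 108 and 66.2 after siCGGBP1, higher in 6 of 9 pairs. The means were 78.4 ± 65.2 and 170 ± 144 (SD, n = 3). The difference of 1.36 in log2(normalized new reads + 1) (SE 1.27) was close to the 1.65 of total RNA but about as large as its own error.

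**Figure D2:**
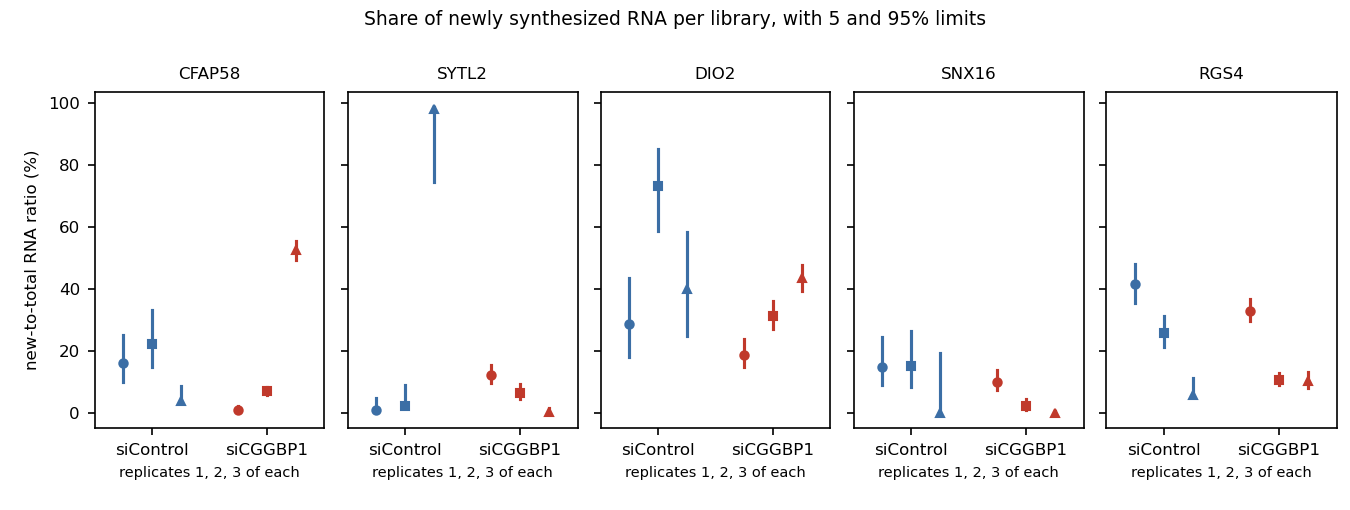
New-to-total RNA ratio in percent per library for each gene, with points at the maximum a posteriori value, lines from the 5 to the 95% limit, siControl in blue and siCGGBP1 in red, replicates 1, 2 and 3 from left to right. The groups overlap in all 5 genes, and libraries of 1 group differ by far more than their limits, as for CFAP58 after siCGGBP1 (0.90% to 52.5%) and SYTL2 in siControl (1.06% to 98.0%).

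The spread of the ratio between libraries was wider for 4 of the 5 genes than the median of genes of their level. The range over the 6 libraries was 97.6 percentage points for SYTL2, 54.6 for DIO2, 51.6 for CFAP58, 35.8 for RGS4 and 15.1 for SNX16. The median range was 13.4 points over all tested genes and 19.8 over the 3340 as low as these. Of the 6 pairs of libraries within a group, 5 had separate 5 to 95% limits for each of CFAP58, SYTL2, DIO2 and RGS4, and 3 did for SNX16, against a median of 3 over all tested genes. These limits cover at most the counting error within a library and not the difference between libraries.

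**Figure D3:**
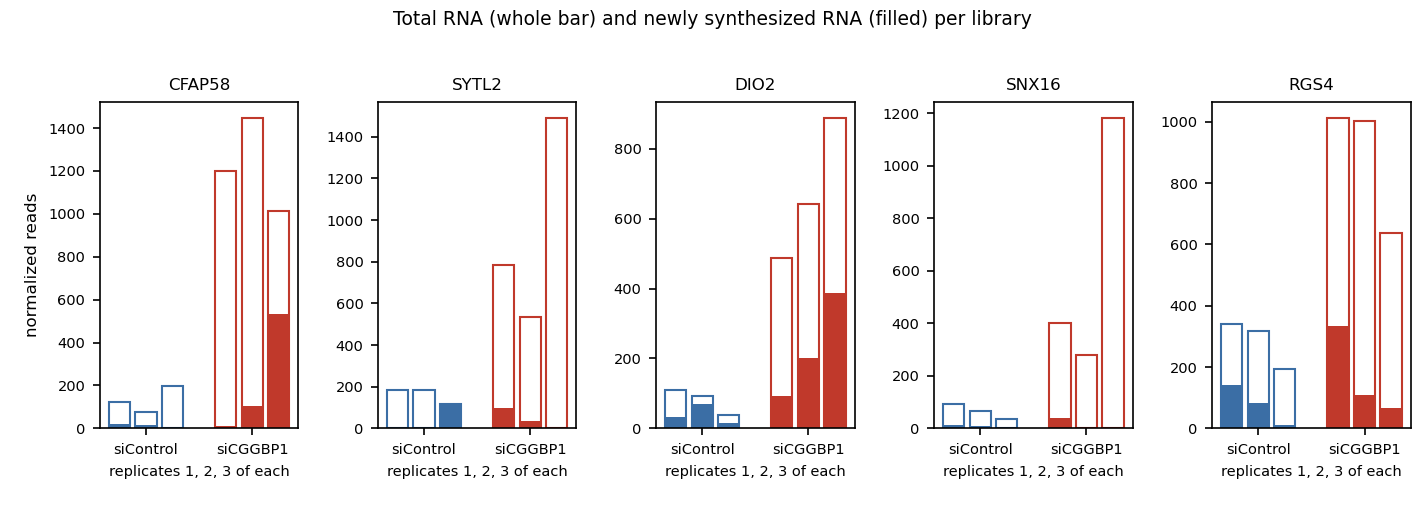
Normalized reads of total RNA (whole bar) and newly synthesized RNA (filled part) for each gene in the 3 siControl (blue) and 3 siCGGBP1 (red) libraries, replicates 1, 2 and 3 from left to right. The whole bars are higher in every siCGGBP1 library, while the filled parts are higher in all 3 siCGGBP1 libraries only for DIO2, from 14.8 to 68.8 in siControl to 92.1 to 387 after siCGGBP1.

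The conversions per covered T, which need no model of the ratio, did not separate the groups for any of the 5 genes, against 4.36% of tested genes with all siCGGBP1 libraries higher. For DIO2 the mean was 1.41 ± 0.85 conversions per 100 covered T in siControl and 1.16 ± 0.46 after siCGGBP1 (SD, n = 3). For CFAP58 it was 0.519 ± 0.367 and 0.896 ± 1.10, where the second value rests on siCGGBP1 replicate 3 at 2.16. These differences were within the spread between libraries.

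For RGS4 the rate was 0.771 ± 0.638 and 0.819 ± 0.519 conversions per 100 covered T (SD, n = 3), a difference far within the spread. For SNX16 it was 0.410 ± 0.356 and 0.204 ± 0.142, and for SYTL2 0.673 ± 0.913 and 0.290 ± 0.135. Without 4sU the rates were 0.0216 for RGS4 and 0.0154 for SNX16, far below most labeled libraries, but 0.306 for CFAP58, from 6 conversions, within the range of its labeled libraries. A DIO2 rate without 4sU could not be had, since that library held 0 DIO2 reads.

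**Figure D4:**
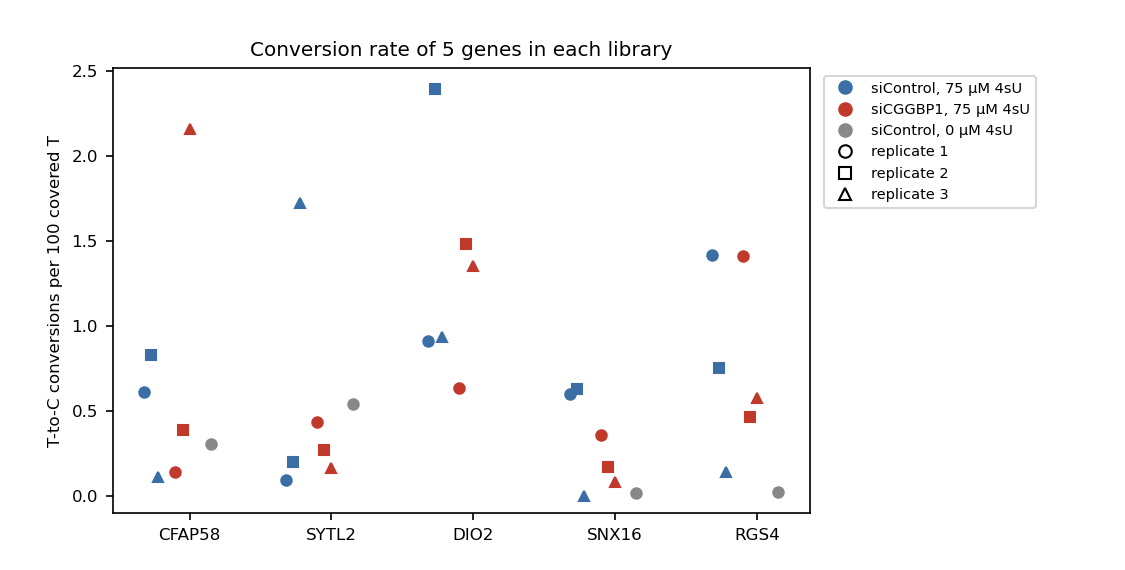
T-to-C conversions per 100 covered T for each gene in the siControl and siCGGBP1 libraries at 75 µM 4sU and in the siControl library without 4sU, 1 point per library. The groups overlap in all 5 genes, and SYTL2 has 0.540 without 4sU, above its 3 siCGGBP1 libraries.

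The 6 lists of relatives and partners, from which the 5 genes were left out, were compared in the same fit of total RNA. Their 108 tested genes were 6 cilia and flagella proteins, 16 synaptotagmin-like proteins and RAB27 partners, 19 genes of thyroid hormone activation and response, 22 selenoproteins and their machinery, 27 sorting nexins and retromer subunits, and 18 RGS and G alpha genes. In each list 0 genes were called in either direction by edgeR, against 1.41% of all tested genes, a share at which lists of this size hold few calls or none. At an unadjusted p under 0.05 the lists held 2, 3, 4, 4, 2 and 2 genes in that order, 17 in all, against 16.4% of all tested genes. DESeq2 called 2 of the list genes, against 3.66% of all tested genes.

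Both genes that DESeq2 called were sorting nexins. SNX12 was higher, with a DESeq2 log2 fold change of 1.07 (DESeq2 adjusted p = 0.0181), and SNX18 was lower, with -1.41 (DESeq2 adjusted p = 0.0187); both were named after their values were seen. The median log2 fold change of the lists ranged from -0.24 for the cilia proteins to 0.15 for the RGS and G alpha genes, beside 0.0012 over all tested genes. Of the 45 cilia and flagella genes on the list, 33 were counted and just 6 passed the filter.

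Of the nearest tested genes on either side of the 5, none was called by edgeR, against the 1.41% of all tested genes, so nothing particular is read from it. These were ITPRIP, 15.4 kb from CFAP58, with a log2 fold change of -0.07, and CREBZF, 11.3 kb from SYTL2, with 0.23. CHMP4C, 40.1 kb from SNX16, had 1.11 (edgeR adjusted p = 0.342), and NRXN3, 329 kb from DIO2, had 1.53 (edgeR adjusted p = 0.288). NUF2, 189.8 kb from RGS4, had -1.03 (edgeR adjusted p = 0.119). On the other sides, PICALM, CEP128 and HSD17B7 lay 89.2 to 256 kb away and XPNPEP1 and LRRCC1 5409.7 and 3264 kb away, with log2 fold changes between -0.66 and 0.27.

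Across the 6 libraries at 75 µM the levels of the 5 genes moved together, with Pearson's r of log2(normalized reads + 1) between 0.807 (CFAP58 and SNX16) and 0.994 (SYTL2 and SNX16). All these values share the 2 groups on which the genes were chosen. Over all 8 libraries r lay between 0.235 (DIO2 and SNX16) and 0.878 (CFAP58 and DIO2), where the 0 and 200 µM libraries held no DIO2 reads and between 308 and 795 raw reads of SNX16 and RGS4. These correlations describe the same 8 libraries and carry no test.

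Over the 8 libraries the tested genes most correlated with each member had changes of their own that were all smaller than the member's. The correlation compares the pattern over libraries and not the level. CFAP58 was nearest to NBEAL1 (r = 0.972), SNURF (0.969) and PDCD4 (0.967), with log2 fold changes of 0.46, 0.78 and 0.58. SYTL2 was nearest to GOLGA5 (r = 0.987), NUDT12 (0.985) and ZSWIM6 (0.983), with 1.96, 1.19 and 1.61. SNURF shares its locus with SNRPN, so its reads are uncertain.

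DIO2 was nearest to SPATA20 (r = 0.982), PDLIM7 (0.980) and GPX1 (0.979), with log2 fold changes of 0.52, 0.73 and 0.57. GPX1, a glutathione peroxidase, is a selenoprotein like DIO2. SNX16 was nearest to SLAMF7 (r = 0.975), PLEKHH1 (0.967) and WDR19 (0.967), with 1.48, 1.96 and 1.67. RGS4 was nearest to TOLLIP (r = 0.978), DNAL1 (0.963) and DCBLD1 (0.948), with 0.94, 1.29 and 1.51.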

How the data were processed

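SLAM-Seq libraries were made with the QuantSeq 3′ kit. Reads of ribosomal RNA were removed with bowtie2 2.3.0 and the rest mapped with STAR 2.5.3a to GRCh38 (Ensembl 90), and no step removing PCR duplicates is stated. The deposited expected counts of reads, conversions, covered T and reads with at least 2 conversions (read so from the name) were made by the authors with GRAND-SLAM and are not normalized. The authors deposited the new-to-total ratio as a fraction per gene and library, with 5 and 95% limits. Model parameters and double hit values, 30 columns, were not used.

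Groups follow the labels, and the labels do not say whether replicates are separate cultures, so p-values measure the spread between these samples. Reads were rounded and fitted with edgeR 4.0.16 (quasi-likelihood, TMM, Benjamini-Hochberg over the 10138 genes reaching 100 reads in 3 or more of the 6 libraries) in R 4.3.3. Standard errors come from the F statistic. Newly synthesized RNA was reads times the maximum a posteriori ratio, compared as log2(normalized + 1). Intervals cover at most the counting error within a library. Reads carry no molecular identifiers, so copies of 1 molecule may count as separate reads and the limits may be too narrow. The ratio's maximum can lie outside its limits where it is 0 or 1. The fit was tested on simulated data. Of 18388 identifiers, 18198 matched GENCODE 44.

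The 5 genes and the lists were chosen with earlier results of these data known. Also named were CGGBP1, list genes called in total RNA, the 3 genes most correlated with each member over 8 libraries and the nearest tested gene on either side. Alternatives were DESeq2 1.42.0, its size factors, 2 other filters, another threshold, a replicate block, leaving out libraries, the posterior mean ratio, conversion counts with and without the background rate, and 10 added in place of 1.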

Additional observations from a re-analysis of the deposited data

Results flagged for a closer look

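In siControl libraries that did not enter the comparison, some of the 5 genes were above every siControl library at 75 µM 4sU, each in 1 library without replicates. Without 4sU, SYTL2 had 300.3 normalized reads, SNX16 202.5 and RGS4 462.6. With 200 µM 4sU, SNX16 had 313.9 normalized reads and RGS4 467.3. Groups of 3 libraries are too small for the test for a single outlying library, which was not run.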

How the results depend on the processing

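The total RNA log2 fold change of the 5 genes stayed positive under all alternatives run. Leaving out libraries could hardly turn its sign, since the groups that chose the genes did not overlap, so nothing is read from it. Leaving out 1 library at a time gave 2.91 to 3.61 for CFAP58, 2.03 to 2.80 for SYTL2, 2.72 to 3.36 for DIO2, 2.39 to 3.60 for SNX16 and 1.43 to 1.84 for RGS4. Without both replicate 3 libraries (added after seeing the data) it was 3.74 for CFAP58, 1.84 for SYTL2 and 2.11 for SNX16, and with 5 siControl libraries (also added) 3.82 for DIO2 and 2.13 for SNX16. Newly synthesized RNA differences on leaving out 1 library ranged from 1.24 to 3.99 for CFAP58, 0.24 to 2.89 for SYTL2, 2.02 to 3.09 for DIO2, -1.05 to 1.65 for SNX16 and 0.31 to 2.08 for RGS4; that of SNX16 turned negative without siCGGBP1 replicate 1 (-1.05) or siControl replicate 3 (-0.95). The SYTL2 difference was -1.64 with conversions above the rate without 4sU and 3.91 without both replicate 3 libraries, where it was 0.85 for CFAP58, 1.52 for DIO2, 0.42 for SNX16 and 0.81 for RGS4. Conversion counts, which grow with the reads that chose the genes, gave 3.56, 2.40, 2.75, 2.46 and 1.94 for CFAP58, SYTL2, DIO2, SNX16 and RGS4. The difference in conversions per 100 covered T, on leaving out 1 library, ranged from -0.26 to 0.75 for CFAP58 and -0.67 to 0.14 for SYTL2. It ranged from -0.51 to 0.24 for DIO2, -0.41 to -0.10 for SNX16 and -0.27 to 0.37 for RGS4. The sign changed for CFAP58 without siCGGBP1 replicate 3 (-0.26) and for SYTL2 without siControl replicate 3 (0.14). For DIO2 it changed without siCGGBP1 replicate 1 (0.0052) or siControl replicate 2 (0.24). For RGS4 it changed without siCGGBP1 replicate 1 (-0.25) or siControl replicate 3 (-0.27). For SNX16 the difference stayed negative, although its groups overlapped. Genes called higher and lower were 46 and 97, and 166 and 205 with DESeq2 (141 of edgeR's 143 shared), 121 and 206 with no filter, 139 and 181 without both replicate 3 libraries, 122 and 169 at an adjusted p under 0.1, and 15 to 48 and 33 to 100 on leaving out 1 library, which leaves fewer samples. List genes called were 0, and 2 with DESeq2, 1 with no filter, 2 without both replicate 3 libraries, 2 at an adjusted p under 0.1 and 0 to 1 on leaving out 1 library. The same-numbered libraries correlated at 0.109, 0.182 and 0.0886 in their deviations from the group means, so the numbers were not taken as pairs; with a replicate block 54 genes were called higher and 107 lower, and SNX16 was not (log2 fold change 2.99). Of the 5, RGS4 was also not called without siControl 1, 2 or 3 or siCGGBP1 1 or 2, SNX16 without siControl 2 or 3 or siCGGBP1 3 or with 5 siControl libraries, SYTL2 without siControl 3 and DIO2 with 5 siControl libraries. These calls come from the contrast that chose the genes, so nothing is read from them. The cause of the shifts between settings was not tested. DIO2 and SNX16 had 36 to 98 raw reads per siControl library. How far read depth limits their ratios was not tested.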
